A study of Mus musculus with 12 samples.

Results

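Transcripts of 10 genes of antioxidant defence were followed in the livers of sedentary and exercised mice. They were picked by gene symbol from the 16821 genes listed: the superoxide dismutases Sod1 and Sod2, catalase (Cat), the glutathione peroxidases Gpx1 and Gpx4, the peroxiredoxins Prdx1, Prdx3, Prdx5 and Prdx6, and Selenop, the selenium transport protein of plasma. All 10 were found once in each mouse. The mice were adult C57BL/6J males with no engineered allele. The 6 mice of the Con group were sedentary and had no treadmill, and those of the Exe group, also 6, had moderate-intensity treadmill running over 6 weeks. Each mouse gave 1 library of bulk liver RNA, taken after saline perfusion within a day of the last run, so the effect of the last run and of the training cannot be told apart. The study used principal component analysis to leave out outlying mice, and how many were left out is not given in the sources used here. Levels are given in FPKM, a count of fragments divided by the length of the transcript and by the mapped fragments of the library, which allows genes to be set beside each other per length.

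Superoxide leaks from the respiratory chain and is made by several oxidases. Superoxide dismutases turn it into hydrogen peroxide, Sod1 in the cytosol with copper and zinc and Sod2 in the mitochondrial matrix with manganese. Hydrogen peroxide is then removed by catalase in peroxisomes, by glutathione peroxidases at the cost of glutathione, and by peroxiredoxins, most of which are recharged by thioredoxin. The liver is rich in these enzymes, and it is also the main source of Selenop, which carries selenium to other organs.

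Gpx1, Gpx4 and Selenop are selenoproteins, in which a UGA codon inside the reading frame is read as selenocysteine instead of stop. The codons are shown because they set these 3 genes apart from the other 7, whose annotated coding sequences held 0 in-frame TGA codons. Each line gives 12 coding bases before and 12 after, 5′ to 3′, and the capitals mark the selenocysteine codon.
Gpx1: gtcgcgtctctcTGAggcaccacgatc
Gpx4: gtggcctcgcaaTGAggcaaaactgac
Selenop: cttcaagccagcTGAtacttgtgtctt
In the GENCODE annotation of the GRCm38 build, plus strand, the Gpx1 codon was number 47 of 201, in exon 1 of 2 (chr9:108339451-108339453). That of Gpx4 was number 129 of 253 in its longest annotated coding sequence, in exon 3 of 7 (chr10:80054737-80054739). The FPKM are per gene, so they do not show which Gpx4 coding sequence the liver used. Selenop held 10 such codons among 380. The one shown, number 59, lay in exon 2 of 5 (chr15:3274848-3274850), and the other 9 lay in exon 5, between codons 259 and 377.

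The 12 libraries resembled each other, with a Spearman rho between 0.9806 and 0.9874 over the 66 pairs of mice and no identical columns. FPKM summed to between 735200 and 820107 per mouse. The depth in reads is unknown. A relative depth estimated from 11 low genes lay between 0.981 and 1.019. These genes were kept only where the values of all mice were close to whole multiples of a common step. That selection holds the estimate close to equal depth, so it cannot show that the depths were equal. The 11 hepatocyte markers had a summed FPKM of 73116 to 93566 (Con mice) and of 83893 to 100367 (Exe mice), with albumin the most abundant and none at 0 in all mice. The 10 antioxidant transcripts made up between 1.08% and 1.38% of all FPKM in a mouse.

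Selenop was the most abundant of the 10, and ranked 41 among all genes by mean FPKM. It was followed by Gpx1, Sod1, Cat, Prdx1, Gpx4, Prdx6, Prdx5, Prdx3 and Sod2, the last at rank 1379. Selenop was above Gpx1 in 11 of the 12 mice, and Gpx1 was above Sod1 in all 12, although the ranges over mice overlapped in both cases. Prdx6 and Prdx5 could not be ordered, since Prdx6 was the higher in only 4 mice and their means had a ratio of 1.0. From Sod1 downward, all other neighbours in the order had ranges that did not touch. The Sod1 level was a median of 32.7 times that of Sod2, and the Prdx1 level a median of 7.77 times that of Prdx3.

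**Figure D1:**
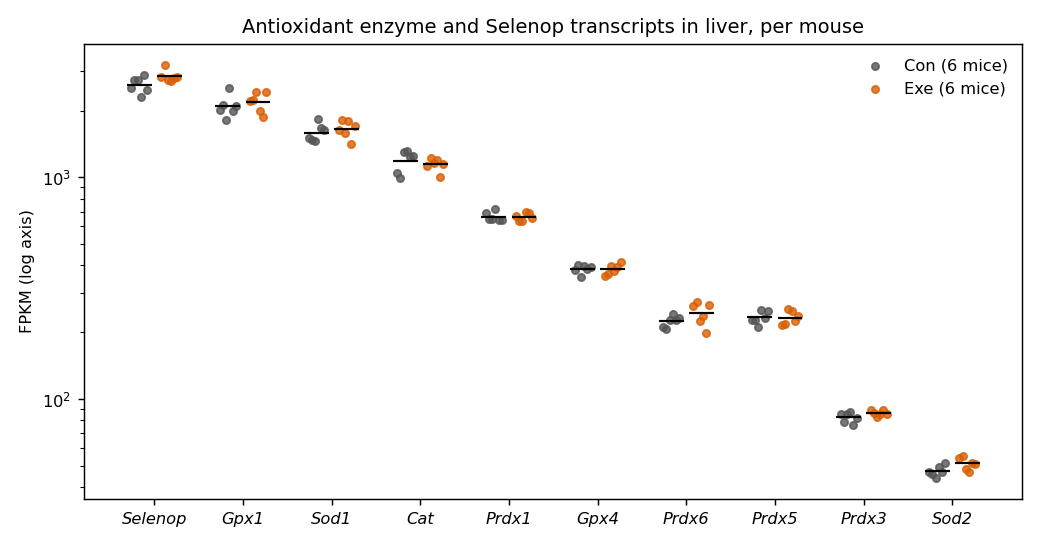
FPKM (log axis) of each of the 10 genes in the 6 Con mice (grey) and the 6 Exe mice (orange), 1 point per mouse, with the group mean as a line. The genes run from Selenop, between 2299 and 3220 FPKM, down to Sod2, between 43.9 and 55.1 FPKM, and the groups overlap for every gene.

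The main comparison asked whether chronic exercise changed the level of these transcripts. None of the 10 passed an adjusted p of 0.05 in the limma fit over all 10241 genes tested. In that fit 0.0% of genes passed with or without a log2 fold change over 1. The study, using DESeq with the same thresholds, did report genes that differed, some higher and some lower in Exe. The 0.0% therefore describes this limma fit of FPKM. At an unadjusted p under 0.05 the count was 0 of 10, beside 6.21% of all genes (4.27% higher and 1.94% lower in Exe). The groups did not overlap for 0 of 10, beside 0.254% of all genes. The log2 fold change, Exe minus Con, was above 0 for 7 of 10, and above 0 for 57.5% of all genes. The median was 0.06 for the 10 and 0.02 for all genes. The 95% intervals of all 10 differences included 0, and over the 10 they ran from -14.7% for Cat to 22.3% for Selenop. In bulk RNA, fewer cells of a type and less RNA per cell cannot be told apart.

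**Figure D2:**
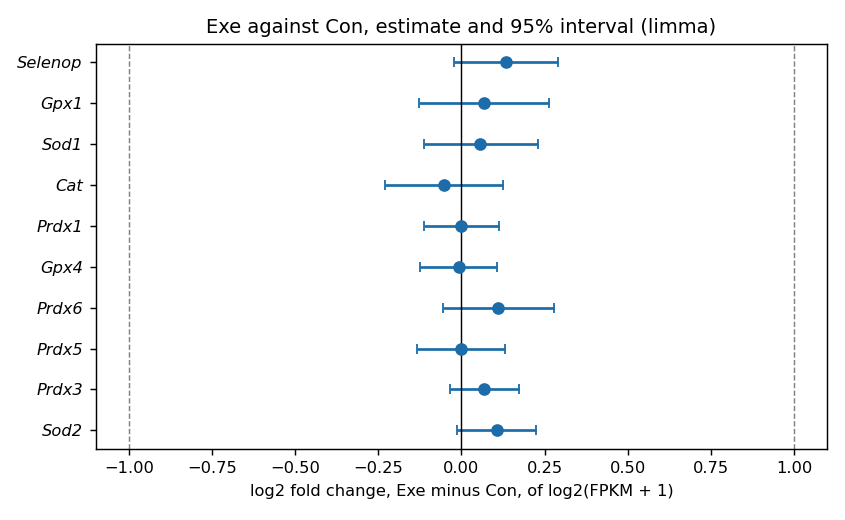
Log2 fold change of log2(FPKM + 1), Exe minus Con, for each of the 10 genes, with the 95% interval of the limma fit as a bar. The estimates lie between -0.05 for Cat and 0.13 for Selenop, and each bar crosses 0.

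Superoxide dismutases, which make hydrogen peroxide from superoxide, were similar in the groups. Sod1 was at 1451, 1566 and 1825 FPKM (lowest, median and highest) in Con mice and at 1409, 1671 and 1807 FPKM in Exe mice. The Con mice spanned nearly the whole range, and the lowest of all was Exe 5. The means were 1592 ± 144 and 1656 ± 148 FPKM (SD, n = 6 per group), a log2 fold change of 0.06 (SE 0.08, exact permutation p = 0.45, limma adjusted p = 0.952). It was 0.01 with a score of acute-phase genes, described with its own relations, as a covariate, and 0.10 without Exe 5. Sod2 was at 43.9, 47.0 and 51.5 FPKM in Con mice and at 46.7, 51.2 and 55.1 FPKM in Exe mice. Of the 6 Exe mice, 5 were above the Con median and 2 above every Con mouse, while Exe 4 was near the Con median. The log2 fold change was 0.11 (SE 0.06, interval -0.01 to 0.23, exact permutation p = 0.0649, limma adjusted p = 0.845).

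Catalase was at 990.4, 1241 and 1316 FPKM in Con mice and at 1006, 1149 and 1221 FPKM in Exe mice. Both groups held a low tail, formed by Con 2 and Con 1 and by Exe 5, and the other mice were all at 1126 FPKM or more. The means of 1188 ± 136 and 1142 ± 75.6 FPKM (SD, n = 6 per group) gave a log2 fold change of -0.05 (SE 0.08, exact permutation p = 0.522, limma adjusted p = 0.959). It was -0.09 with the acute-phase covariate, and -0.10 without Con 2 and -0.02 without Exe 5.

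Of the glutathione peroxidases, Gpx1 reduces soluble peroxides and Gpx4 reduces lipid peroxides in membranes. Gpx1 was at 1804, 2055 and 2525 FPKM in Con mice and at 1869.99, 2219 and 2429.6 FPKM in Exe mice. The highest and the lowest of the 12 mice were both Con mice. The log2 fold change was 0.07 (SE 0.09, exact permutation p = 0.47, limma adjusted p = 0.95). Gpx4 was at 354, 389 and 404 FPKM in Con mice and at 359, 385 and 414 FPKM in Exe mice. The group ranges nearly coincided, with a log2 fold change of -0.01 (interval -0.12 to 0.11, exact permutation p = 0.851), and its sign turned when any of 4 single mice was left out.

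Among the peroxiredoxins, Prdx1 is cytosolic, Prdx3 is mitochondrial, Prdx5 is found in several compartments, and Prdx6 uses a single catalytic cysteine and also acts on phospholipids. Prdx1 was at 638, 648.5 and 719 FPKM in Con mice and at 634, 664 and 698 FPKM in Exe mice. Its means of 665 ± 32.8 and 664 ± 27.4 FPKM (SD, n = 6 per group) were all but equal, with a log2 fold change of 0.00 (interval -0.11 to 0.11, exact permutation p = 0.996) whose sign depends on the scaling, since it was -0.065 after quantile normalization. Prdx5 was at 212, 229.7 and 253 FPKM in Con mice and at 215, 231 and 254 FPKM in Exe mice. The groups covered the same range, and the log2 fold change was -0.001 (interval -0.13 to 0.13, exact permutation p = 0.987), above 0 without any of 5 single mice.

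Prdx3 was at 76.3, 84.0 and 87.5 FPKM in Con mice and at 83.0, 86.3 and 89.5 FPKM in Exe mice. The 2 lowest values belonged to Con 5 and Con 2, and the remaining Con mice lay close to or within the Exe range. The log2 fold change was 0.07 (SE 0.05, interval -0.04 to 0.17, exact permutation p = 0.0952, limma adjusted p = 0.901). Prdx6 was at 208, 227 and 241 FPKM in Con mice and at 198, 249 and 272 FPKM in Exe mice. Exe 1, Exe 2 and Exe 6 exceeded the highest Con mouse, and Exe 5 was below the lowest. The Exe SD of 28.7 FPKM was larger than the Con SD of 12.4 FPKM, and the log2 fold change was 0.11 (SE 0.08, interval -0.06 to 0.28, exact permutation p = 0.193, limma adjusted p = 0.901). Without Exe 5 it was 0.17 and passed an unadjusted p of 0.05. Prdx6b, the gene most like Prdx6, was listed at 0 in all Con mice and at no more than 0.02 FPKM in Exe mice.

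Selenop had the largest estimate of the 10. It was at 2299, 2623 and 2885 FPKM in Con mice and at 2705, 2818 and 3219.8 FPKM in Exe mice. All 6 Exe mice were above the Con median, but only Exe 2 was above every Con mouse, and Con 5 was above the other 5 Exe mice. The means were 2607 ± 214 and 2859 ± 184 FPKM (SD, n = 6 per group). The log2 fold change was 0.13 (SE 0.07), with an interval of -1.45% to 22.3%, an exact permutation p of 0.0584 and a limma adjusted p of 0.848. The estimate depended on the scaling: after quantile normalization it was 0.30 and passed an unadjusted p of 0.05, as it did without Con 5.

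The levels of these genes were steady from mouse to mouse. The SD within groups, on the log2 scale, had a median of 0.101 over the 10 genes and of 0.14 over all genes tested, and 9 of the 10 were below the latter. Beside the 1379 genes at least as abundant as Sod2, whose median was 0.131, 7 of the 10 were below. Gpx1 varied most within Con mice (coefficient of variation 11.4%, tied with Cat at 11.4%) and Prdx6 most within Exe mice (11.8%). Con 4 had the highest level of the Con group for 7 of the 10 genes, but its Selenop was the lowest of all 12 mice. Con 3 had the lowest level of the Con group for 5 genes.

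The genes around these enzymes came from 7 lists, with 79 genes tested in all, and 0 of them passed an adjusted p of 0.05 in the limma fit. Their counts stand beside 57.5% of all genes with a fold change above 0, and beside 6.21% of all genes at an unadjusted p under 0.05 (4.27% higher and 1.94% lower). No list was tested against the other genes. Among other Sod, Gpx and Prdx family genes, 6 were tested and 1 passed an unadjusted p of 0.05. This was Prdx4, the peroxiredoxin of the endoplasmic reticulum, at 96.8 ± 9.38 FPKM in Con and 108 ± 5.52 FPKM in Exe mice (SD, n = 6 per group; log2 fold change 0.16, limma adjusted p = 0.793). Ccs, the chaperone that loads copper into Sod1, was the most abundant of the list, at 217 ± 13.0 and 216 ± 21.9 FPKM.

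Thioredoxin and glutathione recycling, which recharges peroxiredoxins and glutathione peroxidases, had 15 genes tested, 9 with a fold change above 0 and 6 below, and 1 of each passed an unadjusted limma p of 0.05. Txnrd2, the mitochondrial thioredoxin reductase, was at 15.7 ± 0.977 FPKM in Con and 17.2 ± 1.07 FPKM in Exe mice (log2 fold change 0.12, exact permutation p = 0.0325, limma adjusted p = 0.799). Sesn2, a stress-induced sestrin, was at 2.49 ± 0.433 and 1.89 ± 0.414 FPKM (log2 fold change -0.28, exact permutation p = 0.0433, limma adjusted p = 0.793). Txn1, the thioredoxin of the cytosol and the most abundant of the list, had a log2 fold change of 0.01.

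In glutathione synthesis and turnover 8 genes were tested, 2 with a fold change above 0 and 6 below, and 0 passed an unadjusted p of 0.05. The most abundant over all mice was Gclc, the catalytic subunit of the rate-limiting enzyme, at 72.7 ± 18.7 FPKM in Con and 64.2 ± 15.1 FPKM in Exe mice. Gclm, its modifier subunit, was close to it, at 69.1 ± 7.2 and 66.6 ± 4.97 FPKM, and was the higher in Exe mice by mean. Enzymes that supply NADPH, the reductant behind both systems, had a median log2 fold change of 0.10 over 12 genes, 9 of them above 0 and 2 of these at an unadjusted limma p under 0.05. Pgd, of the pentose phosphate pathway, was at 24.6 ± 2.58 FPKM in Con and 29.0 ± 3.53 FPKM in Exe mice, where 4 of 6 were above every Con mouse (log2 fold change 0.23, exact permutation p = 0.0411, limma adjusted p = 0.793). Nnt, the transhydrogenase of the mitochondrial inner membrane, was at 10.3 ± 1.13 and 11.5 ± 0.431 FPKM (log2 fold change 0.16, exact permutation p = 0.0216, limma adjusted p = 0.793). The FPKM do not show whether the Nnt transcript of C57BL/6J mice is intact or makes protein. Its level therefore cannot be read as a supply of NADPH. The most abundant of the list, the folate enzyme Aldh1l1, had a log2 fold change of 0.13 (limma adjusted p = 0.914).

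For selenocysteine synthesis and insertion, 10 genes were tested, 6 with a fold change above 0 and 4 below, and 0 passed an unadjusted p of 0.05. The most abundant was Selenbp2, which binds selenium but is not known to act in selenocysteine insertion, at 964 ± 181 FPKM in Con and 1002 ± 470.2 FPKM in Exe mice. Of the 11 genes tested in the list of other selenoproteins, 9 had a fold change above 0 and 1 passed an unadjusted limma p of 0.05. Selenof, a protein of the endoplasmic reticulum, ranged from 106 to 119.9 FPKM in the Con group and from 114 to 134 FPKM in the Exe group. In the Exe group, 5 of 6 exceeded the highest Con mouse (log2 fold change 0.13, exact permutation p = 0.0108, limma adjusted p = 0.793). Msrb1, a methionine sulfoxide reductase and the most abundant of the list, had a log2 fold change of 0.02. The list left out selenoproteins placed in other lists, so its count is not that of all selenoproteins. Of these, Txnrd2 and Sephs2 had log2 fold changes of 0.12 and 0.07, and Txnrd1, Txnrd3 and Gpx3 of -0.03, -0.03 and -0.02.

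Oxidases that produce hydrogen peroxide, the substrate of catalase, had a median log2 fold change of 0.07 over 17 genes, 13 of them above 0. Of these 17, 4 were higher and 1 lower in Exe at an unadjusted limma p under 0.05, beside the shares of all genes given above. Acox2, the peroxisomal oxidase of bile acid intermediates, was at 68.0 ± 7.58 FPKM in Con and 78.3 ± 4.09 FPKM in Exe mice (log2 fold change 0.21, exact permutation p = 0.0195, limma adjusted p = 0.793). Paox, a polyamine oxidase, was at 20.2 ± 2.57 and 24.0 ± 2.63 FPKM (log2 fold change 0.24, exact permutation p = 0.0346, limma adjusted p = 0.793). Maoa, a monoamine oxidase, had a log2 fold change of 0.19 (exact permutation p = 0.0563), Ddo, D-aspartate oxidase, one of 0.32 (exact permutation p = 0.0887) and Smox, spermine oxidase, one of -0.26 (exact permutation p = 0.0584). These 3 did not pass the exact test at 0.05. Ddo, Gclm, Sephs2, Txnrd1, Txnrd3 and Gpx3 were named after their values were seen. The most abundant of the list was Uox, urate oxidase, with a log2 fold change of 0.03.

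**Figure D3:**
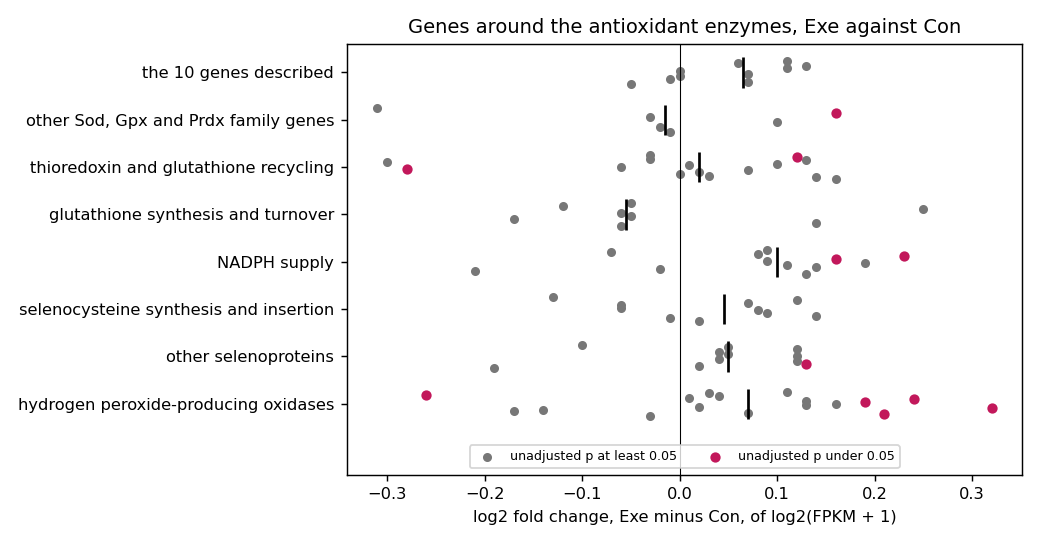
Log2 fold change, Exe minus Con, of log2(FPKM + 1) for the tested genes of each list (1 point per gene), with the median as a black line. Genes at an unadjusted limma p under 0.05 are in magenta and number 0 of the 10 genes described, 2 of 12 in NADPH supply and 5 of 17 among the oxidases.

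Over the 12 mice the genes varied largely apart from each other. Of the 45 pairs, 27 had a Pearson r above 0, with a median of 0.053 and a range from -0.575 to 0.767. At an unadjusted permutation p under 0.05 there were 5 pairs, and 0 after Benjamini-Hochberg adjustment over the 45. The highest r was that of Sod1 and Prdx6, at 0.767 (permutation p = 0.00452, adjusted p = 0.203), with a Spearman rho of 0.804 (permutation p = 0.00277, adjusted p = 0.125). The r was 0.78 within Con and 0.812 within Exe mice, and 0.717 without Exe 5 and Con 3, the mice farthest from the median of Sod1. Sod1 and Cat had an r of 0.608 (permutation p = 0.0388, adjusted p = 0.337) and a rho of 0.483 (permutation p = 0.116), and without the same mice the r was 0.829. Sod1 and Gpx1 had an r of 0.604 and a rho of 0.559. Without those mice the r was 0.319 (permutation p = 0.364), so this relation did not pass 0.05 without them. The remaining pairs were Gpx4 with Prdx5 (rho 0.615, with an r of 0.717 within Con and 0.554 within Exe mice) and Prdx1 with Selenop, which had the lowest r (r -0.575, rho -0.49). Neither passed 0.05 without the 2 mice farthest from the median of the first gene, where the r was 0.317 (permutation p = 0.369) and -0.319 (permutation p = 0.374). The points share libraries, so a difference between libraries that moves many genes enters every pair.

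**Figure D4:**
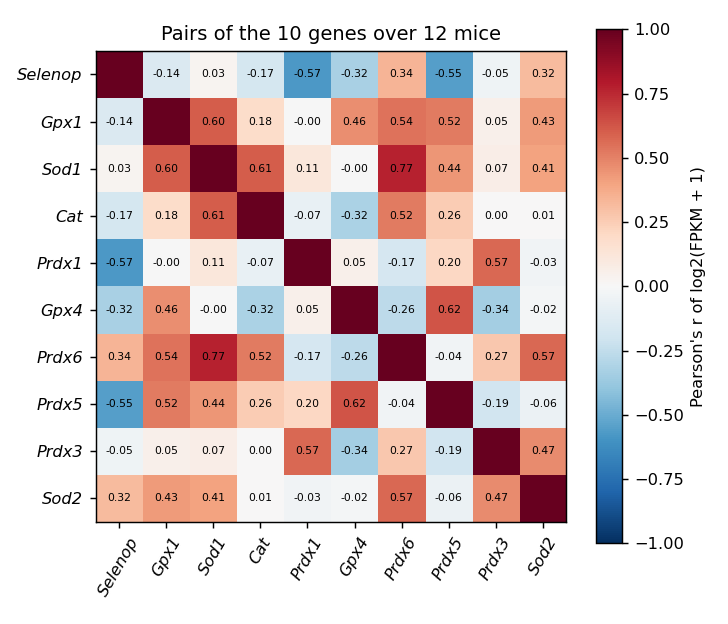
Pearson r over the 12 mice of log2(FPKM + 1) for each of the 45 pairs of genes, as a coloured grid with r printed in each cell. The highest value is that of Sod1 and Prdx6, 0.767, and the lowest that of Prdx1 and Selenop, -0.575.

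Mice of both groups differed in acute-phase genes, which hepatocytes make more of in inflammation. A score per mouse was taken as the mean log2(FPKM + 1) of Saa1, Saa2, Saa3, Lcn2, Orm1, Orm2, Hp, Itih4, Fgb, Apcs, Steap4 and Hpx. It was highest in Exe 5 (10.66), Con 1 (10.61), Con 2 (9.91) and Con 3 (9.83), and lowest in Con 4 (7.51), Exe 4 (7.52), Con 5 (7.6) and Exe 2 (7.69). The groups did not differ beyond their spread (9.18 ± 1.3 in Con and 8.69 ± 1.14 in Exe mice, SD, n = 6 per group, exact permutation p = 0.494).

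Sod1 was lower where the score was higher. The 4 mice with the highest scores had the 4 lowest Sod1 levels, at 1409 FPKM in Exe 5, 1451 in Con 3, 1476 in Con 2 and 1499 in Con 1. Con 4, Exe 2 and Exe 4, among the 4 mice with the lowest scores, had the 3 highest Sod1 levels, at 1825, 1807 and 1792 FPKM. Pearson r was -0.911 (permutation p = 0.00016) and Spearman rho -0.916 (permutation p = 0.0001). The r was -0.848 within Con mice, -0.978 within Exe mice, and -0.881 without Exe 5 and Con 1, the mice farthest from the median score. No other of the 10241 genes tested had a lower r, although 18 had a larger absolute r. This rank depended on the scaling and on single mice, since 23 genes were lower than Sod1 after median centring, 3 after quantile normalization and 11 without Exe 5. The 12 genes of the score were among the genes tested and are related to it by construction, so they may be among the 18. They were also not left out of the shares of all genes related to the score given below.

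In a limma fit with the group as a term, the Sod1 slope was -0.097 on the log2 scale per unit of the score (SE 0.022). Its p, adjusted over all genes tested, was 0.0628, and it was 0.049 after quantile normalization and 0.113 after median centring. In this fit 0.107% of genes had a slope below 0 at an adjusted p of 0.05, and 0.615% a slope of either sign.

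Most genes leaned the same way, with an r below 0 for 59.8% of all genes tested (median -0.115) and for 8 of the 10. Prdx6 and Cat had the next lowest r, and for the other 7 genes the unadjusted permutation p was above 0.05. The count of 3 of 10 at an unadjusted p under 0.05, all with an r below 0, stands beside 16.9% of all genes, 10.8% with an r below 0 and 6.12% with an r above 0. Prdx6 had an r of -0.691 (permutation p = 0.0146) and a rho of -0.699 (permutation p = 0.0144), with -0.699 within Con and -0.766 within Exe mice. Cat had an r of -0.625 (permutation p = 0.0329) and a rho of -0.587 (permutation p = 0.0492), with -0.592 within Con and -0.948 within Exe mice. Without Exe 5 and Con 1 these values of r were -0.493 (permutation p = 0.148) and -0.375 (permutation p = 0.297), so neither relation passed 0.05 without those mice. The limma slopes had adjusted p-values of 0.208 and 0.192. Gpx1 had an r of -0.453 and Selenop one of -0.182.

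**Figure D5:**
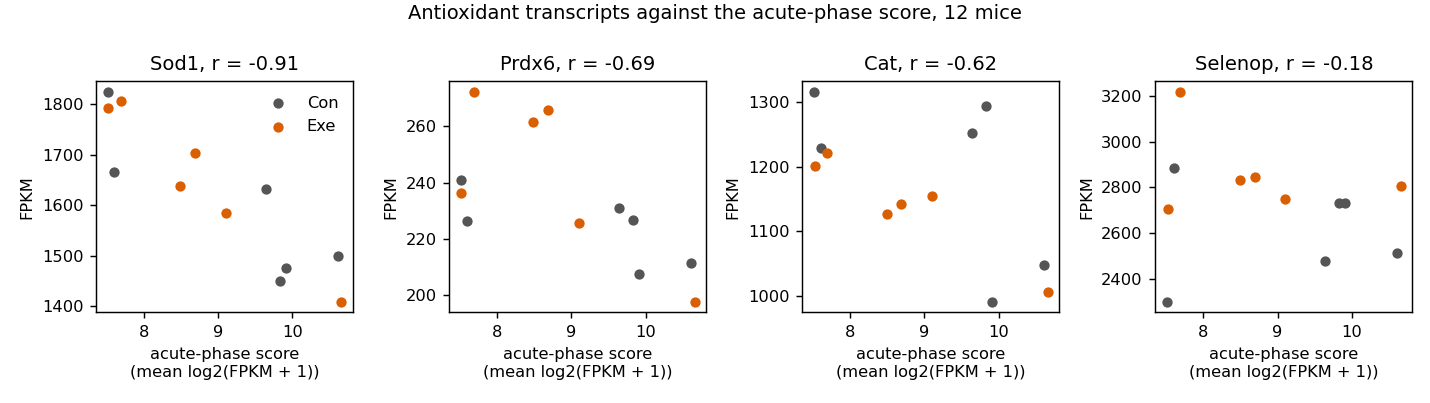
FPKM of Sod1, Prdx6, Cat and Selenop against the acute-phase score (mean log2(FPKM + 1) of 12 genes), 1 point per mouse, Con in grey and Exe in orange. Sod1 runs from 1825 FPKM at a score of 7.51 to 1409 FPKM at 10.66, with Con and Exe mice intermixed, while Selenop has an r of -0.18.

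Summed levels of cell type markers moved with the same score. A sum weighs its most abundant genes most, and single markers were not set against the score. A sum can therefore move with the level of its leading genes as well as with the number of cells, and these were not told apart. Hepatocytes make acute-phase genes as well, so the score and the hepatocyte sum come partly from the same cells. Albumin led the hepatocyte sum, with means of 34839 FPKM in Con and 43908 FPKM in Exe mice. Over 8 lists, the summed FPKM of the hepatocyte markers, as log2(sum + 1), had an r of -0.782 with the score (permutation p = 0.00346, adjusted p = 0.0138). That of the sinusoidal endothelial markers had one of -0.783 (permutation p = 0.00273, adjusted p = 0.0138). Spearman rho was -0.797 and -0.769 (adjusted permutation p = 0.0105 and 0.0133), and without Exe 5 and Con 1 the r was -0.854 and -0.816. Within Con mice the r was -0.927 for hepatocyte and -0.888 for sinusoidal markers, and within Exe mice it was -0.67 and -0.6. The neutrophil, bile duct and Kupffer cell sums were higher where the score was higher, with an r of 0.735, 0.754 and 0.661. Their rho was 0.825, 0.664 and 0.657 (adjusted permutation p at most 0.0384 for each r and rho). Without Exe 5 and Con 1 the r was 0.552 (permutation p = 0.0716), 0.665 (permutation p = 0.0447) and 0.492 (permutation p = 0.151), so the neutrophil and Kupffer cell relations did not pass 0.05 without those mice. Within Con and within Exe mice the r was 0.836 and 0.873 for neutrophil, 0.869 and 0.63 for bile duct and 0.424 and 0.857 for Kupffer cell markers. The 10 neutrophil markers summed to 12.4 to 34.6 FPKM in Con and 9.28 to 54.7 FPKM in Exe mice. S100a8 had means of 11.3 FPKM in Con and 16.3 FPKM in Exe mice, and S100a9 of 5.64 and 7.81 FPKM. The other neutrophil markers had means under 1 FPKM in both groups. The 7 bile duct markers summed to between 35.05 and 83.6 FPKM and between 32.1 and 84.8 FPKM, and the 11 Kupffer cell markers to between 313 and 573 FPKM and between 227 and 519.7 FPKM. Spp1 led the bile duct sum, with means of 51.0 FPKM in Con and 35.85 FPKM in Exe mice. The 9 sinusoidal endothelial markers summed to between 74.0 and 122.5 FPKM and between 88.1 and 109.97 FPKM. None of these markers was at 0 in all mice, and their part in the relation of Sod1 was not tested.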

How the data were processed

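RNA-seq was done on 1 liver library from each of 6 Con and 6 Exe mice. Reads that passed the authors' quality filter were aligned with HISAT to GRCm39, and the deposited values are FPKM per gene with 2 decimals. The labels also name Bowtie2 and mm10 with no role. The tool and annotation behind the FPKM, any scaling between mice, and the treatment of reads shared with pseudogene copies are not given in the sources used here. The authors' DESeq test needs counts, which FPKM are not.

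Values were analysed as log2(FPKM + 1), which understates the change of low genes. The filter kept 10241 genes (1 FPKM or more in 6 mice or more), all 10 antioxidant genes among them. They were fitted in R 4.3.3 with limma 3.58.1 (lmFit, then eBayes with the trend option), and p-values were adjusted by Benjamini-Hochberg, a step tested on simulated data. The thresholds for a call followed the study: adjusted p at most 0.05, and log2 fold change over 1 in either direction. Single genes were also compared by an exact two-sided permutation test over the 924 splits, whose smallest p is 0.00216. Correlations used 100000 two-sided permutations (Python 3.11.15; numpy 2.4.6, scipy 1.17.1, pandas 2.3.3). Figures were drawn with matplotlib 3.10.9. All p-values measure the spread between mice of 1 cohort.

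The genes, the lists and the acute-phase score were chosen with earlier results of these data known. Genes named were the 10, the most abundant gene of each list with up to 4 genes at an unadjusted p under 0.05, and for each of the 10 the gene of most similar pattern. At most 5 genes of a marker list were to be named. Marker lists for red blood cells, stellate cells and pancreatic acinar cells were also summed. Codons were read from GENCODE transcripts on GRCm38, a build other than that of the FPKM, and were used for sequence only. Alternatives were a pseudocount of 0.1, no filter, a filter in all 12 mice, robust variance moderation, quantile normalization, median centring, the acute-phase score as a covariate, the replicate number as a block and each mouse left out in turn. The slope of every gene on the score, the rank of Sod1 and the share of all genes related to the score were added after seeing the data. A Benjamini-Hochberg adjustment over the 10 genes was planned for their relations to the score. The permutation p-values given for these relations are unadjusted.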

Additional observations from a re-analysis of the deposited data

Results flagged for a closer look

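Selenop in Exe 2 stood apart from the other Exe mice. At 3219.8 FPKM it was above the remaining 5, which lay between 2705 and 2844 FPKM, and the gap to the nearest of them was 0.73 of the whole range of the group, above the critical value at 95% of Dixon's test for 6 samples. It was the only such case among the 20 groups tested, 2 for each gene, and chance gives about 1 in 20. Exe 2 also had the highest level of the Exe group for 5 of the 10 genes, Selenop included.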

How the results depend on the processing

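Over 20 alternative fits, 0 of the 10 genes passed an adjusted p of 0.05, and their adjusted p lay between 0.534 and 1.0. Of the fold changes of the 10, those of Prdx1, Gpx4 and Prdx5, all close to 0, changed sign in 19 cases. The log2 fold change of Prdx1 was -0.001 with the acute-phase covariate, -0.005 after median centring and -0.065 after quantile normalization. Leaving out each mouse in turn gave -0.014 to 0.023 for Prdx1, -0.032 to 0.011 for Gpx4 and -0.029 to 0.022 for Prdx5. The count of the 10 at an unadjusted limma p under 0.05, 0 as reported, was 1 after quantile normalization (Selenop), and 0 to 1 with a mouse left out. It was 1 without Con 5 (Selenop), without Con 6 or Exe 4 (Sod2) and without Exe 5 (Prdx6). Quantile normalization also took the log2 fold change of Gpx1 to 0.17, of Prdx3 to 0.02 and of Prdx6 to 0.07. The acute-phase covariate took that of Sod1 to 0.01, of Cat to -0.09, of Gpx1 to 0.04 and of Prdx6 to 0.07. With a mouse left out, Sod1 ran from 0.03 to 0.10, Cat from -0.10 to -0.02 and Gpx1 from 0.03 to 0.12. The median of the other Sod, Gpx and Prdx family genes changed sign with the covariate (0.016) and with a mouse left out (-0.03 to 0.042), and that of thioredoxin and glutathione recycling with a mouse left out (-0.003 to 0.054). The count of genes related to the acute-phase score at an unadjusted permutation p under 0.05, 3 as reported, was 6 after quantile normalization and 2 after median centring. After median centring Cat had an r of -0.545 (permutation p = 0.0696). With a mouse left out the count was 1 to 3, with 1 (Sod1) without Exe 5. Without a mouse, 0 to 1 of the 45 pairs passed an adjusted p of 0.05, with 1 without Con 3. Without a filter, 1 gene of the whole table passed an adjusted p of 0.05. The number of all genes at an unadjusted p under 0.05, 636 as reported, was 418 without Exe 2 and 910.0 without Exe 5. The replicate number as a block changed no call, with 567 genes at an unadjusted p under 0.05. Same-numbered mice did not deviate together, with r between -0.478 and 0.165, over 0.1 in 1 of 6 pairs, and no mouse matched best to its own number. The cause of these shifts was not tested. FPKM hold no counts, so counting error is unknown and the spread between mice is the only error given.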

Other observations

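For each of the 10 genes, the gene of most similar pattern over the 12 mice was found by Pearson r of log2(FPKM + 1). As these are the highest over all genes tested, they are given as a description. For Sod1 it was Sdhc, a membrane subunit of succinate dehydrogenase, with an r of 0.943 (0.981 within Con and 0.925 within Exe mice). For Prdx6 it was Kxd1, with an r of 0.962, the highest of the 10. For Cat it was Baz2b (0.937), for Sod2 Tmem256 (0.907) and for Gpx1 Gabarap, of the autophagy machinery (0.895). For Prdx3 it was Acat2, an acetyl-CoA acetyltransferase (0.938), for Prdx1 the cell cycle factor E2f3 (0.933) and for Prdx5 Pnkd (0.905). The lowest of these values were those of Selenop with Emc10 (0.852) and of Gpx4 with Nod1 (0.847). Baz2b, E2f3 and Nod1 were low, at means of 1.18, 1.84 and 3.4 FPKM beside the filter of 1 FPKM. An r over 0.9 was reached by 21 genes with Prdx6 and by 19 genes with Sod1, beside 5 or fewer with each of the others. All these genes share the same 12 libraries.

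Other marker lists had no relation to the acute-phase score that passed an adjusted permutation p of 0.05 over the 8 lists. The r was 0.56 for stellate cell markers, 0.358 for pancreatic acinar markers and -0.198 for red blood cell markers. For the red blood cell markers it was -0.831 within Con and 0.97 within Exe mice. Their summed level was between 235 and 903 FPKM in Con and between 400.3 and 1290.4 FPKM in Exe mice, highest in Exe 5. The pancreatic acinar markers, at no more than 2.93 FPKM in Con mice, reached 23.6 FPKM in Exe 5.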
